A study of Mus musculus with 11 samples.

Results

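The 40 genes described here encode the enzymes of glycolysis and of the citrate cycle, together with the lactate and pyruvate dehydrogenases that join them and the itaconate-forming enzyme that leaves the cycle. They were chosen by gene name from the 31936 genes of a mouse RNA sequencing table. All 40 were in the table and all 40 passed the filter on low values, which kept 12969 genes with a log2 CPM (the log2 of reads relative to library size) of at least -1 in at least 5 libraries. The cells were thioglycollate-elicited peritoneal macrophages of female mice, inflammatory cells recruited to the abdominal cavity by an injected irritant. A group of 6 libraries had received a mimic of microRNA-150 (miR-150), a synthetic RNA that supplies this microRNA, and a group of 5 libraries a negative control. The labels give no strain, age, dose or duration, and no allele or further agent, and thioglycollate elicitation was shared by both groups. Whether the replicates were separate mice or separate cultures is not stated, and the p-values therefore cover only the spread between these libraries, which may be technical. A further sample was omitted by the submitters for improper fragmentation and was not analysed here.

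Glycolysis turns glucose into pyruvate. Hexokinase traps glucose in the cell, phosphofructokinase commits it to the pathway, aldolase splits the sugar, and glyceraldehyde-3-phosphate dehydrogenase and the enzymes after it yield ATP and pyruvate. Lactate dehydrogenase converts pyruvate to lactate, while the pyruvate dehydrogenase complex turns it into acetyl-CoA, which citrate synthase feeds into the citrate cycle. In macrophages, inflammatory activation is known to increase glycolysis and to divert the cycle intermediate aconitate to itaconate, an immunomodulatory metabolite made by the product of Acod1.

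Read totals were alike, with 20313901 to 25473814 reads assigned to genes in the mimic libraries and 18538509 to 22668862 in the controls. The macrophage markers Csf1r, Adgre1, Cd68, Itgam, Lyz2 and Mertk summed to 15630 to 19935 CPM with the mimic and 17593 to 20408 CPM in controls, and of these 6 Adgre1 was called higher and Lyz2 lower. The other 9 marker lists, of resident macrophages and of further cell types, each summed to at most 15.0 CPM in any mimic library and 16.5 CPM in any control. The highest sums were those of 3 neutrophil markers (7.81 to 15.0 CPM with the mimic and 12.8 to 16.5 CPM in controls), of which S100a8 was called lower. These sums came almost wholly from S100a8, as S100a9 had 0 mimic and 2 control reads and Ly6g 3 and 3. Of the resident macrophage markers, Timd4, at 1.35 CPM with the mimic and 0.898 in controls, was called higher. Gata6 (log2 fold change -0.37, limma adjusted p = 0.0654) and Icam2 (-0.03, 0.850) were not called. The part of such cells in the results below was not tested. No marker had 0 reads in total. In whole cultures a smaller share of a cell type and less RNA per cell cannot be told apart. Mimic libraries 3, 4 and 6 had the most positive relation to transcript length. Their log2 CPM deviations from the gene mean increased by 0.058, 0.089 and 0.072 per doubling of length. The slopes were -0.063 to 0.017 in mimic libraries 1, 2 and 5 and -0.050 to -0.024 in the controls. The mimic libraries were graded, and the slope of mimic library 1, -0.063, lay below those of all controls. Results that rest on libraries 3, 4 and 6 are given below with and without them. Fits without them give more weight to mimic library 1, where the called members other than Acod1 lay nearest the control mean by their medians. Values from those fits may be smaller for that reason, which was not tested.

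With the mimic, Acod1 was the one enzyme gene of the 40 to change by more than a log2 unit, 2.77-fold higher. Of the hexokinases, Hk2 rose, while 5 of 8 genes from aldolase to pyruvate kinase, the isomerase gene Gpi1 and the lactate dehydrogenase gene Ldhb fell, each by at most 0.37 on the log2 scale. Subunits of the pyruvate dehydrogenase complex (Pdha1, Dld) and of succinyl-CoA ligase (Sucla2) rose, and Idh2, Fh1 and the inhibitory kinase gene Pdk1 fell. In total 5 members were called higher and 10 lower at a limma adjusted p below 0.05, adjusted over all genes tested. These are 12.5% and 25% of the members, against 15.4% and 14.6% of all genes tested, and 37.5% in either direction against 30%. The median log2 fold change was -0.03 over the 40 members and 0.00071 over all genes, and the median size of the change was 0.13 and 0.14. The libraries of the groups did not overlap for 6 members, with 3 (Acod1, Hk2, Sucla2) wholly above the controls and 3 (Gpi1, Aldoc, Ldhb) wholly below, where the background over all genes was 8.89% above and 6.04% below.

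**Figure D1:**
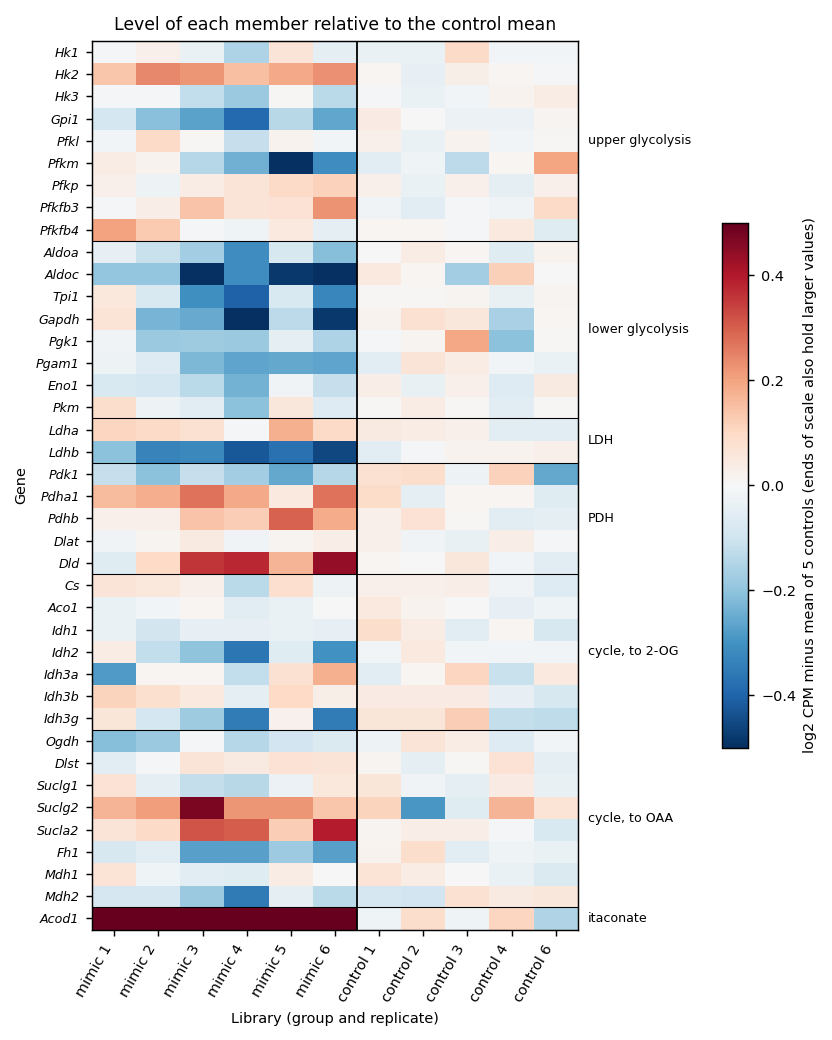
Each row is a gene and each column a library, mimic libraries left of controls, and the colour gives log2 CPM minus the mean of the 5 controls. Genes are grouped by role (LDH, lactate dehydrogenase; PDH, pyruvate dehydrogenase complex and its kinase; 2-OG, 2-oxoglutarate; OAA, oxaloacetate). Acod1 is the one row far above the control mean in all 6 mimic libraries, and Aldoa, Tpi1 and Gapdh are lowest in mimic libraries 3, 4 and 6.

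The calls differed in how much they rested on single libraries. Those of Acod1, Hk2, Pdha1, Gpi1, Aldoc and Ldhb held when each of the 11 libraries was left out in turn, when mimic libraries 3, 4 and 6 were left out together, and in the 9 other alternative settings. Without mimic libraries 3, 4 and 6 there were 5 members higher and 4 lower (of 40, where 9.36% and 6.83% of all genes were called in the same fit): these 6, joined by Ldha and Pfkfb4 as higher and Ogdh as lower. In a voom fit with sample weights 9 members were higher and 14 lower, against 22.9% and 23.2% of all genes, and all 15 calls were kept. Sucla2 and Fh1 kept their calls when single libraries were left out and lost them without those 3. Dld, Gapdh, Idh2, Pdk1, Pgam1 and Tpi1 all lost their calls without mimic library 3, 4 or 6 or control library 1 or 2, and Aldoa without control library 2. Of the same 6, Gapdh and Pdk1 were lost without mimic library 2, Pdk1 and Pgam1 without mimic library 5, all but Dld without control library 3, all but Gapdh without control library 4, and all but Pdk1 without control library 6. The highest adjusted p with a single library left out was 0.13 for Pdk1, 0.0997 for Tpi1, 0.0976 for Idh2, 0.0917 for Pgam1, 0.0876 for Gapdh, 0.0721 for Dld and 0.0528 for Aldoa, and none of these values changed sign. None of the 15 was lost without mimic library 1. Of the members not called, Idh3g, Mdh2 and Pdhb were called without mimic library 1, Pdhb without mimic library 2, Ogdh without mimic library 3, Ldha without mimic library 4, and Eno1 and Mdh2 without mimic library 5.

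**Figure D2:**
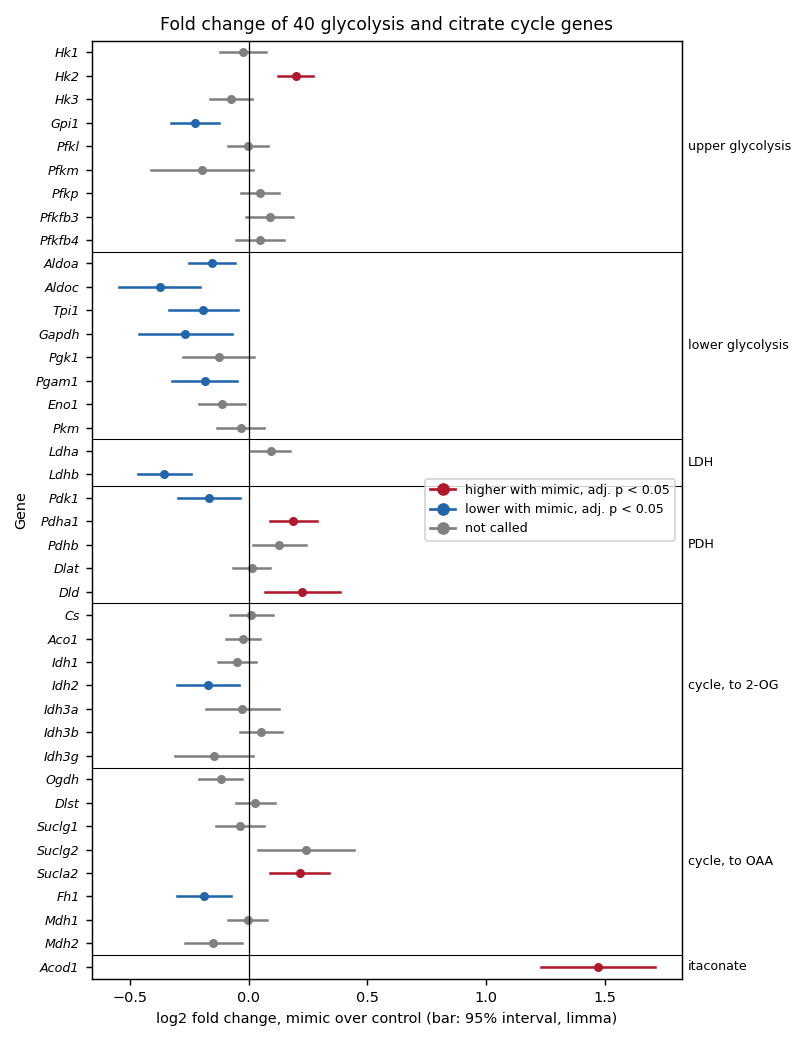
Points give the limma log2 fold change of each of the 40 genes, mimic over control, with 95% intervals, grouped by role with the same abbreviations (LDH, PDH, 2-OG, OAA). Acod1 lies at 1.47 and every other gene between -0.37 and 0.24.

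The 3 members with the smallest p were Acod1, Ldhb and Hk2, and the stretch from 250 bases before to 50 bases after their transcription start is shown. Some genes of these pathways are known targets of the hypoxia-inducible factor HIF-1, whose part in the changes was not tested. The sequences are RefSeq's for GRCm38.p6, read 5′ to 3′ on the strand of the gene. Capitals mark the core of the hypoxia response element, ACGTG or GCGTG, found on either strand (a match on the other strand reads CACGT or CACGC).
Acod1, chr14:103046762-103047061, plus strand: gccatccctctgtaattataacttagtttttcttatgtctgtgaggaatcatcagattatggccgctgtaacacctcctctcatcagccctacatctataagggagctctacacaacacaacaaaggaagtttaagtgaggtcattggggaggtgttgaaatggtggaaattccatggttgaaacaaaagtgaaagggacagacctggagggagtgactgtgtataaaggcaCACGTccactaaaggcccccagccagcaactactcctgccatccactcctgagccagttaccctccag
Hk2, chr6:82774405-82774704, minus strand: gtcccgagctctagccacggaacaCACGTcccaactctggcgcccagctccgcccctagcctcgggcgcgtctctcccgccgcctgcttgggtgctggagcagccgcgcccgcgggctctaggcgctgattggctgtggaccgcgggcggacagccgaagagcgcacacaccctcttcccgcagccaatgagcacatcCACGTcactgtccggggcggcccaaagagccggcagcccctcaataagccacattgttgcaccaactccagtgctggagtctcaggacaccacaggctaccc
Ldhb, chr6:142507908-142508207, minus strand: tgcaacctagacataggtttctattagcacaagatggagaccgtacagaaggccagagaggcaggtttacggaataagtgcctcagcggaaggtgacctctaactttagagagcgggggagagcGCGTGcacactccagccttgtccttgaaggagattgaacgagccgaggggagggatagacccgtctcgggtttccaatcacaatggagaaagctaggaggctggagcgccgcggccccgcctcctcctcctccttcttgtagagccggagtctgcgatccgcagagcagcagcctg
Acod1 had a match starting at -18 relative to the start, Hk2 had matches at -226 and -52, all of ACGTG on the opposite strand, and Ldhb had one of GCGTG at -126. Promoters were found for 39 of the 40 members, Idh3a being without an entry. A core was present for 29 of the 39 members (74.4%), against 67.2% of the 9516 tested genes with a promoter. ACGTG alone was present for 17 of the 39 (43.6%), against 29.4%. A gene counted if any of its promoters matched, with 58 promoters for the 39 members and 12167 for the 9516 genes. By call, a core of either form was present for 3 of 5 higher members, 8 of 10 lower members and 18 of 24 that were not called. An interferon-type element (GAAA, 2 further bases and GAAA again, on either strand) was in the promoter of 1 member, Suclg2, and of 3.9% of tested genes. A match of a few letters is a description of the sequence and was not tested for binding.

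In control cells the transcripts with the highest level per length were Aldoa (aldolase A), at 9.73 ± 0.035 log2 CPM per kb of transcript (SD, n = 5), and Pkm (pyruvate kinase), at 8.69 ± 0.036. Ldha, Hk3 and Idh1 followed at 7.98 ± 0.050, 7.93 ± 0.027 and 7.91 ± 0.071, neighbours whose ranges over the control libraries overlapped. Suclg2, at 0.34 ± 0.18, and Pfkm, at 1.10 ± 0.12, had the lowest levels per length. Gapdh, which is usually among the most abundant transcripts of a cell, stood at rank 27 of 40 with 3.98 ± 0.097 log2 CPM per kb. Of the 50-base words in its longest protein-coding transcript, 82.5% also occurred in transcripts of genes elsewhere in the genome. Of those 218 genes, 213 were pseudogenes. This shared portion was 72.2% for Eno1, 68% for Pgk1, 41.5% for Pgam1, 30.5% for Pkm, 30.3% for Pdhb, 27% for Ldhb, 21.8% for Suclg2, 19.3% for Gpi1, 16.6% for Ldha, 13.5% for Aldoa and 7.5% for Tpi1, and at most 4% for the other members. How the submitters' counting treated reads that fit several genes is not given in the sources used here, so the levels of genes with a large shared portion are uncertain. The part of shared sequence in their fold changes was not tested.

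**Figure D3:**
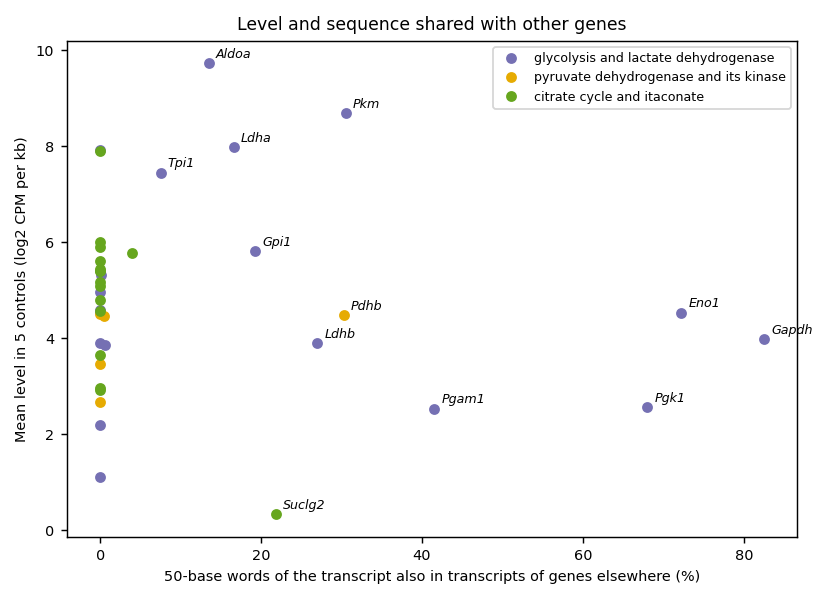
Each point is a gene. The x axis gives the percent of 50-base words of its longest protein-coding transcript that also occur in transcripts of genes elsewhere. The y axis gives the gene's mean level in the 5 controls (log2 CPM per kb). Gapdh (82.5%), Eno1 (72.2%) and Pgk1 (68%) have the largest shared portions, at levels of 3.98, 4.53 and 2.57.

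Hexokinase, which phosphorylates glucose, is encoded by 3 members. Hk2, the inducible form that can bind mitochondria (ENSMUSG00000000628, chromosome 6, 82725025 to 82774454, GRCm38), measured 7.15, 7.21 and 7.25 log2 CPM as the lowest, median and highest mimic library. In the controls it measured 7.02, 6.97, 7.04, 7.02 and 7.00. All 6 mimic libraries were above all 5 controls. The rise was 0.20 ± 0.035 log2 units (SE), 1.15-fold (limma adjusted p = 0.000799), and 0.19 (adjusted p = 0.000298) without mimic libraries 3, 4 and 6. Hk3, a form abundant in myeloid cells, measured -0.07 (adjusted p = 0.189) and Hk1, the widely expressed form, -0.02 (0.717), neither called. Per length, Hk2 made up 9.84 ± 0.56% (SD, n = 6) of the transcripts of these 3 hexokinases with the mimic and 8.29 ± 0.16% (SD, n = 5) in controls, ranges of 9.08 to 10.4% and 8.06 to 8.49%. Hk3 made up 84.8 ± 0.63% with the mimic and 86.4 ± 0.34% in controls, so it remained the main hexokinase transcript in both groups.

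Gpi1, glucose-6-phosphate isomerase (ENSMUSG00000036427, chromosome 7, 34201330 to 34230336), measured 6.95, 7.10 and 7.25 log2 CPM as the lowest, median and highest mimic library. The controls measured 7.38, 7.34, 7.31, 7.31 and 7.35, all above every mimic library, of which mimic 4 was lowest. Gpi1 fell by 0.23 ± 0.048 log2 units (SE; limma adjusted p = 0.00295), and the log2 fold change was -0.15 (adjusted p = 0.00518) without mimic libraries 3, 4 and 6. The committing step that follows did not pass the test in any member. The phosphofructokinase genes Pfkl, Pfkp and Pfkm had log2 fold changes of -0.0031, 0.05 and -0.20 (adjusted p = 0.962, 0.332 and 0.148), with 95% intervals of -0.09 to 0.08, -0.03 to 0.13 and -0.41 to 0.02. Pfkl and Pfkp together made up most phosphofructokinase transcripts per length, 53.9% and 43.6% with the mimic and 54.6% and 42.5% in controls. Pfkfb3 and Pfkfb4, whose products set the level of the activator fructose-2,6-bisphosphate, measured 0.09 (adjusted p = 0.155) and 0.05 (0.446).

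From aldolase to pyruvate kinase 5 of 8 members were called lower and 0 higher, 62.5% against 14.6% of all genes, with a median log2 fold change of -0.17. Without mimic libraries 3, 4 and 6 only Aldoc was called among these 8. Aldoc, the aldolase form best known from brain (ENSMUSG00000017390, chromosome 11, 78322968 to 78327781), measured 3.10, 3.28 and 3.48 log2 CPM as the lowest, median and highest mimic library. Its control libraries measured 3.72, 3.68, 3.50, 3.79 and 3.67, and the lowest control lay just above the highest mimic library. It fell by 0.37 ± 0.081 log2 units (SE; limma adjusted p = 0.00334), to 0.772 of the control level, and by 0.29 (adjusted p = 0.0167) without those 3 libraries. Aldoc made up 0.463 ± 0.055% (SD, n = 6) of aldolase transcripts per length with the mimic and 0.538 ± 0.048% (SD, n = 5) in controls, the remainder being Aldoa.

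Aldoa (ENSMUSG00000030695, chromosome 7, 126795234 to 126800751) measured 10.05, 10.22 and 10.32 log2 CPM as the lowest, median and highest mimic library. In controls it measured 10.36, 10.40, 10.37, 10.30 and 10.38. Only mimic library 1 reached into the control range, above control 4. The log2 fold change was -0.15 ± 0.046 (SE; limma adjusted p = 0.0202) and -0.08 (adjusted p = 0.112) without mimic libraries 3, 4 and 6. Tpi1, triosephosphate isomerase, measured 7.73, 7.95 and 8.19 as the lowest, median and highest mimic library, against 8.14, 8.14, 8.15, 8.10 and 8.15 in controls. Here mimic library 1 was above every control and the other 5 were below every control, with mimic 4 lowest. Its log2 fold change of -0.19 ± 0.068 (limma adjusted p = 0.0454) was -0.03 (adjusted p = 0.571) without those 3 libraries.

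Gapdh, which oxidises glyceraldehyde-3-phosphate, measured 3.93, 4.24 and 4.55 log2 CPM as the lowest, median and highest mimic library and 4.50, 4.56, 4.54, 4.32 and 4.49 in controls. The groups overlapped, since mimic libraries 1 and 5 were above control 4. The fall was 0.27 ± 0.092 log2 units (SE; limma adjusted p = 0.0391), and the value without mimic libraries 3, 4 and 6 was -0.10 (adjusted p = 0.363). Pgam1, phosphoglycerate mutase, measured 3.09, 3.11 and 3.33 in the lowest, median and highest mimic library and 3.30, 3.42, 3.39, 3.34 and 3.32 in controls. Mimic library 1 lay within the control range and the other 5 below it. The fall was 0.18 ± 0.065 (limma adjusted p = 0.0408), with -0.11 (adjusted p = 0.362) without those 3 libraries. The remaining 3 genes of this stretch did not pass: Pgk1, phosphoglycerate kinase, at -0.13 (adjusted p = 0.186), Eno1, enolase, at -0.11 (0.0699), and Pkm at -0.03 (0.614; 95% interval -0.13 to 0.07).

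The lactate dehydrogenase genes differed in sign. Ldhb, the subunit typical of heart (ENSMUSG00000030246, chromosome 6, 142490249 to 142507957), measured 3.83, 3.93 and 4.08 log2 CPM as the lowest, median and highest mimic library. The controls measured 4.23, 4.28, 4.30, 4.30 and 4.31, all above every mimic library. Ldhb fell by 0.35 ± 0.053 log2 units (SE), to 0.783 of the control level (limma adjusted p = 0.000153), and by 0.30 (adjusted p = 0.000685) without mimic libraries 3, 4 and 6. Ldha, the subunit typical of muscle, measured 8.84, 8.94 and 9.02 as the lowest, median and highest mimic library and 8.89, 8.88, 8.87, 8.79 and 8.79 in controls. Its log2 fold change of 0.09 ± 0.039 did not pass (limma adjusted p = 0.0779). It did pass without mimic libraries 3, 4 and 6 (0.13, adjusted p = 0.0112) and after a correction for transcript length (0.16, adjusted p = 0.00118). Per length, Ldhb made up 4.17 ± 0.25% (SD, n = 6) of the transcripts of the pair with the mimic, from 3.88 to 4.52%, and 5.59 ± 0.28% (SD, n = 5) in controls, from 5.24 to 5.88%.

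**Figure D4:**
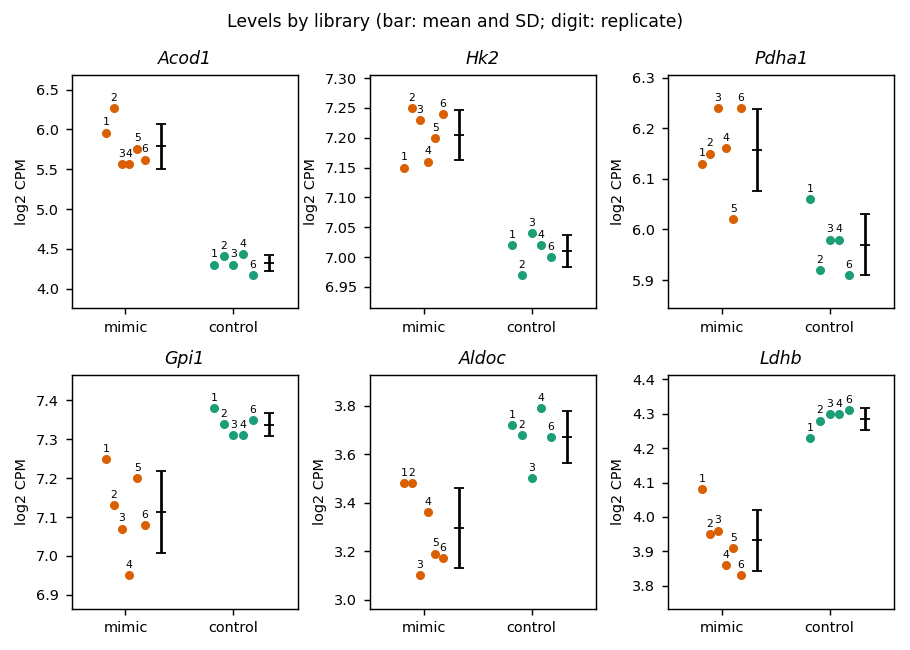
Points are single libraries (the digit is the replicate number), mimic left of control, with the mean and SD in log2 CPM, for the 6 genes whose calls held in every alternative tried. In Acod1 and Hk2 all mimic libraries are above all controls, in Gpi1, Aldoc and Ldhb all are below, and in Pdha1 5 of 6 are above all controls.

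At the entry to the citrate cycle, 2 genes of the pyruvate dehydrogenase complex rose and Pdk1, the gene of 1 of its inhibitory kinases, fell. These are 40% and 20% of the 5 members of this step, against 15.4% and 14.6% of all genes tested. Pdha1, the catalytic E1 alpha subunit (ENSMUSG00000031299, chromosome X, 160122209 to 160138413), measured 6.02, 6.16 and 6.24 log2 CPM as the lowest, median and highest mimic library. In controls it measured 6.06, 5.92, 5.98, 5.98 and 5.91, so that 5 of 6 mimic libraries were above every control and mimic 5 was below control 1. The rise was 0.19 ± 0.047 log2 units (SE; limma adjusted p = 0.00822), and 0.13 (adjusted p = 0.0476) without mimic libraries 3, 4 and 6. Dld, the E3 subunit shared with 2-oxoglutarate dehydrogenase, measured 5.78, 6.10 and 6.28 in the lowest, median and highest mimic library and 5.85, 5.84, 5.90, 5.83 and 5.79 in controls. Mimic library 1 was below every control and the other 5 above every control. The rise of 0.23 ± 0.074 (limma adjusted p = 0.031) was 0.07 (adjusted p = 0.39) without those 3 libraries. Pdhb, the E1 beta subunit, and Dlat, the E2 subunit, measured 0.13 (adjusted p = 0.0720) and 0.01 (0.802).

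Pdk1, a kinase that inactivates the complex, measured 4.80, 4.90 and 4.94 log2 CPM as the lowest, median and highest mimic library. It measured 5.13, 5.14, 5.03, 5.17 and 4.80 in controls, where control 6 lay within the mimic range and the other 4 above it. The fall was 0.17 ± 0.061 log2 units (SE; limma adjusted p = 0.0491). It was -0.19 (adjusted p = 0.0774) without mimic libraries 3, 4 and 6, where fewer libraries were fitted. The other kinase genes of the complex, Pdk2, Pdk3 and Pdk4, were not members and were not called. They measured -0.23, -0.0002 and 0.12 (limma adjusted p = 0.222, 0.998 and 0.723).

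Within the citrate cycle itself, 1 of 15 members rose and 2 fell, 6.67% and 13.3%, against 15.4% and 14.6% of all genes tested. Their median log2 fold change was -0.03. Cs, citrate synthase, measured 0.01 (adjusted p = 0.861), with a 95% interval of -0.08 to 0.10. Aco1, an aconitase of the cytosol, measured -0.02 (0.658), Idh1, the cytosolic isocitrate dehydrogenase, -0.05 (0.348), and the subunits of the mitochondrial NAD-linked enzyme, Idh3a, Idh3b and Idh3g, -0.03, 0.05 and -0.14 (adjusted p of at least 0.164). Idh2, the mitochondrial NADP-linked form, measured 5.84, 6.04 and 6.24 log2 CPM as the lowest, median and highest mimic library and 6.19, 6.25, 6.19, 6.19 and 6.19 in controls. Mimic library 1 lay within the control range and the other 5 below it. The fall of 0.17 ± 0.061 (SE; limma adjusted p = 0.0442) was 0.05 (adjusted p = 0.467) without mimic libraries 3, 4 and 6.

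In the second limb of the cycle, Sucla2, the ATP-forming beta subunit of succinyl-CoA ligase, measured 5.79, 5.94 and 6.12 log2 CPM as the lowest, median and highest mimic library. In controls it measured 5.74, 5.76, 5.76, 5.72 and 5.65, so the groups did not overlap, and mimic libraries 3, 4 and 6 were the highest. The rise was 0.22 ± 0.058 log2 units (SE; limma adjusted p = 0.0123), and 0.10 (adjusted p = 0.13) without those 3. Suclg2, the GTP-forming beta subunit, measured 0.24 (0.0646) and Suclg1, the alpha subunit, -0.03 (0.608). Sucla2 made up 94.8 ± 0.52% (SD, n = 6) of beta subunit transcripts per length with the mimic and 94.9 ± 0.66% (SD, n = 5) in controls.

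Fh1, fumarase, measured 4.78, 4.83 and 5.00 log2 CPM as the lowest, median and highest mimic library and 5.07, 5.14, 5.00, 5.03 and 5.02 in controls. All mimic libraries but number 2 were below every control. It fell by 0.19 ± 0.053 log2 units (SE; limma adjusted p = 0.0156), and the log2 fold change was -0.10 (adjusted p = 0.182) without mimic libraries 3, 4 and 6. Ogdh, the E1 subunit of 2-oxoglutarate dehydrogenase, was just outside the threshold at -0.12 (adjusted p = 0.0501) and passed without those 3 (-0.16, adjusted p = 0.00332). Dlst, its E2 subunit, measured 0.03 (0.593). Mdh2, the mitochondrial malate dehydrogenase, measured -0.15 (0.0561) and Mdh1, the cytosolic one, -0.0038 (0.952).

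Acod1, aconitate decarboxylase, makes itaconate (ENSMUSG00000022126, chromosome 14, 103046977 to 103056573). It measured 5.56, 5.69 and 6.27 log2 CPM as the lowest, median and highest mimic library, and 4.30, 4.41, 4.30, 4.43 and 4.17 in controls. All 6 mimic libraries were more than a log2 unit above the highest control, with mimic libraries 1 and 2 the highest. The mean was 5.79 ± 0.28 (SD, n = 6) with the mimic and 4.32 ± 0.11 (SD, n = 5) in controls, giving a log2 fold change (± SE) of 1.47 ± 0.11 and a limma adjusted p of 2.68e-07. Without mimic libraries 3, 4 and 6 it was 1.68 (adjusted p = 8.19e-06), and with single libraries left out it ran from 1.37 to 1.51. Per length, Acod1 stood at 2.93 log2 CPM per kb in controls, rank 34 of the 40 members, and at 4.40 with the mimic. In the authors' deposited table its log2 fold change is 1.46, with limits of 1.21 and 1.71. That table calls 4 members higher (Acod1, Hk2, Pdha1, Sucla2) and 6 lower (Gpi1, Aldoa, Aldoc, Tpi1, Ldhb, Fh1).

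The falls and the smaller rises were graded over the mimic libraries. The median deviation of the 10 lower members from the control mean was -0.06, -0.16, -0.26, -0.34, -0.16 and -0.29 log2 units in mimic libraries 1 to 6, and that of the 4 higher members other than Acod1 was 0.11, 0.14, 0.29, 0.25, 0.14 and 0.34. Libraries 3, 4 and 6 were the farthest from the controls in both sets. The longest transcripts had a median length of 2623 nt in the 5 higher members and 2213 nt in the 10 lower ones, against 2879 nt in the 25 members not called and 3247 nt over all genes tested with a length. Across the 40 members the Spearman correlation of transcript length with log2 fold change was 0.29, and 0.25 across 12933 genes, both a description across genes that share libraries. Across the members it was 0.17 without mimic libraries 3, 4 and 6. After a correction for transcript length in each library 8 members were higher and 7 lower, against 16.3% and 14.9% of all genes in the same fit. Acod1, Hk2, Pdha1, Dld, Sucla2, Gpi1, Aldoc, Gapdh, Ldhb, Pdk1 and Fh1 were called as before, Aldoa, Tpi1, Pgam1 and Idh2 were not, and Idh3b, Ldha, Ogdh and Pdhb were called in addition. The correction and the correlations took the longest transcript of any type. For Gapdh this had 3289 nt and for Pdhb 2377 nt, where their longest coding transcripts had 1420 and 1513 nt. Coding lengths were not tried, so the outcome for such genes may rest on that choice. What part transcript length had in the falls was not tested further.

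**Figure D5:**
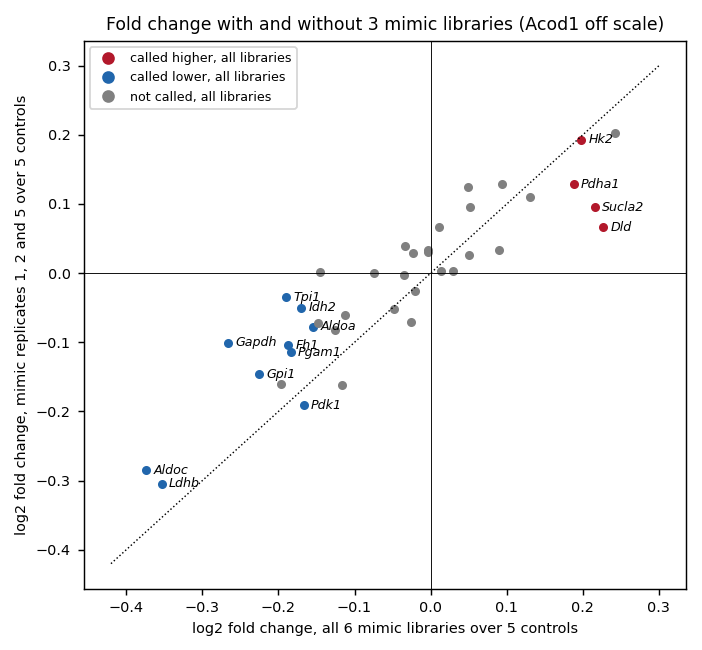
Each point is a gene, with the log2 fold change from all 6 mimic libraries on the x axis and from mimic libraries 1, 2 and 5 on the y axis, both over the same 5 controls. Tpi1 lies at -0.19 and -0.03 and Dld at 0.23 and 0.07, while Ldhb (-0.35 and -0.30) and Hk2 (0.20 and 0.19) lie close to equal values.

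A further 61 genes of neighbouring steps were listed by their roles, and 53 of them were tested. Of the 53, 6 were higher and 14 lower, 11.3% and 26.4%, against 15.4% and 14.6% of all genes tested, with a median log2 fold change of -0.05. Without mimic libraries 3, 4 and 6 there were 4 higher and 8 lower, where 9.36% and 6.83% of all genes were called in the same fit. Among 14 carriers, further isozymes and regulators of glycolysis, 2 were higher and 4 lower (14.3% and 28.6%). Hif1a, the oxygen-regulated subunit of HIF-1, rose by 0.25 ± 0.049 log2 units (SE; limma adjusted p = 0.00173; 0.16, adjusted p = 0.00256, without those 3 libraries), with all 6 mimic libraries above all controls. Slc16a3, a lactate exporter, fell by 0.27 (adjusted p = 0.0203), Slc2a6, a sugar carrier of lysosomes, by 0.38 (0.0258), and Eno2, the neuronal enolase form, by 0.23 (0.0259). Of these 3, Eno2 was still called without those libraries (-0.25, adjusted p = 0.0310), and Slc16a3 and Slc2a6 were not (-0.11 and -0.13, adjusted p = 0.152 and 0.177). With single libraries left out, the call of Slc16a3 ended without control 1, that of Eno2 without mimic 3 or control 4 or 6, and that of Slc2a6 without mimic 3, 4 or 6 or control 1, 4 or 6.

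Of 11 genes for pyruvate entry and its control, 2 were higher and 1 lower, 18.2% and 9.09% against the 15.4% and 14.6% of all genes. Me2, mitochondrial malic enzyme, rose by 0.19 (limma adjusted p = 0.00444) and Pdp1, the phosphatase that reactivates pyruvate dehydrogenase, by 0.14 (0.0151), both with all 6 mimic libraries above all controls. Mpc2, a subunit of the mitochondrial pyruvate carrier, fell by 0.44 (0.00485) and measured -0.24 (adjusted p = 0.0533) without mimic libraries 3, 4 and 6. Of 11 further citrate cycle and citrate export genes 0 were higher and 3 lower (27.3%): Slc25a10, the dicarboxylate carrier, at -0.37 (0.00336), Glud1, glutamate dehydrogenase, at -0.11 (0.0475), and Slc25a1, the citrate carrier, at -0.23 (0.0499). Slc25a10 kept its call without those 3 libraries (-0.20, adjusted p = 0.0161) and the other two did not (-0.08 and -0.05, adjusted p = 0.174 and 0.527). Glud1 was still called only without mimic library 1 or control library 4, and Slc25a1 only without mimic library 1, 2 or 5.

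In the pentose phosphate pathway, which branches off after hexokinase and supplies NADPH and ribose, 1 of 8 genes was higher and 4 lower, 12.5% and 50% against 15.4% and 14.6% of all genes. Pgd, 6-phosphogluconate dehydrogenase, measured 7.77, 7.93 and 8.11 log2 CPM as the lowest, median and highest mimic library, and 8.20, 8.25, 8.29, 8.26 and 8.33 in controls. Every mimic library was below every control. Pgd fell by 0.31 ± 0.054 log2 units (SE; limma adjusted p = 0.000625), Tkt, transketolase, by 0.30 (0.00116), Taldo1, transaldolase, by 0.28 (0.00251), and Pgls, the lactonase, by 0.44 (0.00518). All 4 were also lower without mimic libraries 3, 4 and 6, at -0.23, -0.19, -0.16 and -0.23 (adjusted p of at most 0.0152). Of 9 gluconeogenesis and glycogen genes 1 was higher and 2 lower (11.1% and 22.2%). Pygl, a glycogen phosphorylase, fell by 0.28 ± 0.040 (limma adjusted p = 0.000118; -0.24, adjusted p = 6.1e-05, without those 3), and all 6 mimic libraries were below all controls. Ugp2, which makes UDP-glucose, rose by 0.19 (0.00903) and G6pc3, a glucose-6-phosphatase, fell by 0.31 (0.0085), with 0.11 (adjusted p = 0.0374) and -0.19 (adjusted p = 0.0722) without those 3 libraries.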

How the data were processed

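RNA sequencing libraries of 6 mimic and 5 control macrophage samples were used, grouped by their titles. The submitters' processing notes name the aligner STAR, Subread with its counter featureCounts, and edgeR. For none of them is a version, a genome build, an annotation or a strand setting given in the sources used here. The authors deposited log2 CPM per library. The deposited table also holds the authors' log2 fold changes with limits, p-values and adjusted p-values, whose test is not stated, and scores of the authors (log odds, t statistic and signed fold), which were not used. The table holds 32265 rows, of which the first row per gene ID was kept (31936 genes). From the values themselves, each deposited log2 CPM is a whole number of reads plus 0.5 over a library total scaled by 0.97 to 1.03, and whole reads were recovered for 100% of values within 0.01 read. Every pair of replicates differed beyond sampling noise (chi-square per degree of freedom 2.41 to 39.5).

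The members and lists were chosen with earlier results of these data known. Models with a group term were fitted with limma 3.58.1 (R 4.3.3, statmod 1.5.0; trend and robust settings) to the deposited log2 CPM of 12969 genes, with Benjamini-Hochberg adjustment over all of them. In simulated data over 12969 genes, 76% of genes at a log2 change of -0.5 and 84% at 0.5 were recovered. At -1 and at 1 it was 98%, and 4.81% of calls were false. These rates describe the simulated data only. Real replicates differed by a chi-square per degree of freedom of up to 39.5, and the mimic libraries differed in their relation to transcript length. Whether the simulation carried such differences is not given here. The rates therefore cannot show the recovery or the share of false calls in the real libraries. Smaller changes, such as most of those of the members, were not simulated. Every member was accounted for. Members that passed got their control values per library and the lowest, median and highest mimic value, and of each other list up to 4 called genes were named by smallest p. Pdk2, Pdk3 and Pdk4 were named in addition, beside Pdk1. Coordinates, transcript lengths and shared 50-base words came from GENCODE M21 (GRCm38), which matched 99.4% of gene IDs and may not be the authors' annotation. Levels per length and shared words used the longest protein-coding transcript of each member. Promoters came from RefSeq (GRCm38.p6). Python 3.11.15, pandas 2.3.3, numpy 2.4.6 and matplotlib 3.10.9 made the tables and figures. Alternatives changed the scaling, filter, pseudocount (2 reads), threshold (adjusted p below 0.01) and model (voom with sample weights), added a replicate block or a transcript length correction (lowess, span 0.3), or left out libraries. A planned search of the microRNA's sites is not reported here.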

Additional observations from a re-analysis of the deposited data

Results flagged for a closer look

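In 6 of 80 groups of libraries (40 genes in either group), 1 library lay far from the others of its group by Dixon's criterion, where chance gives about 1 in 20. Suclg2 was at 2.563 log2 CPM in mimic library 3, with the other mimic libraries at 2.23 to 2.31. Idh1 was at 9.024 in mimic library 2, the others at 9.07 to 9.08. Among the controls, Hk1 was at 6.088 in control 3 (others 5.96 to 5.98), Tpi1 at 8.103 in control 4 (others 8.14 to 8.15), Gapdh at 4.316 in control 4 (others 4.49 to 4.56) and Idh2 at 6.246 in control 2 (others about 6.19). Without control 4, the log2 fold change of Gapdh was still called and that of Tpi1 was not, and without control 2, that of Idh2 was not called. Suclg2, Idh1 and Hk1 were not called in the fit with all libraries.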

How the results depend on the processing

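Of the 840 log2 fold changes of members recomputed under other settings, 707 kept their direction and side of the threshold, 78 lost the call, 31 gained one and 24 reversed. The reversed values belonged to 9 genes, none of them called, and none passed in the other direction. They were Cs at -0.0003952 with voom and -0.003199 with the replicate block, Idh3a at 0.004102 with voom, Dlat at -0.0127, Mdh1 at 0.0348 and Pfkp at -0.0292 after the length correction, and Hk1 at 0.0286, Idh3g at 0.0021, Mdh1 at 0.0301, Pfkl at 0.0331 and Pkm at 0.0391 without mimic replicates 3, 4 and 6. With single libraries left out, log2 fold changes ran from -0.0041 to 0.0398 for Cs, -0.042 to 0.00207 for Hk1, -0.0655 to 0.0264 for Idh3a, -0.0214 to 0.012 for Mdh1, -0.0237 to 0.019 for Pfkl and -0.0566 to 0.000468 for Pkm. Members called higher numbered 5 in the reported fit and 9 with voom (where 14 were lower), 3 at an adjusted p below 0.01, and 8 after the length correction. Members called lower numbered 10, and 3 at the stricter threshold, 4 without mimic replicates 3, 4 and 6, and 4 (without control replicate 2) to 12 (without mimic replicate 1) with single libraries left out. For the other pathway genes, 3 were higher and 8 lower at the stricter threshold, 8 were lower without mimic replicates 3, 4 and 6, and 9 (without control replicate 1 or 6) to 18 (without mimic replicate 1) were lower with single libraries left out. Over all genes, 967 were higher and 792 lower at the stricter threshold, 1214 and 886 without those 3 replicates, and 2976 and 3005 (22.9% and 23.2%) with voom. Leaving out libraries also leaves fewer to fit, and the cause of the other differences was not tested. The scalings moved the median of all genes by less than 0.01. Scaling by the recovered totals ended the call of Dld and added Eno1, Mdh2 and Ogdh, median-ratio scaling added Mdh2 and Ogdh, a filter on mean level or a pseudocount of 2 added Ogdh, and no filter ended Pdk1, Pgam1 and Tpi1. Same-numbered libraries of the groups did not deviate together (correlations -0.0606 to 0.0623, own number highest in 2 of 5), so the numbers were not taken as pairs. With the replicate block 5 members were higher and 9 lower, Pdk1 and Pgam1 no longer called and Idh3g called in addition. The search of the microRNA's sites was not run. For genes that share much of their sequence with pseudogenes, such as Gapdh, Eno1 and Pgk1, the counting limits how far the level can be read.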
